A study of Mus musculus with 4 samples.

Results

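The E2F transcription factors and the retinoblastoma proteins that restrain them were represented by 10 genes, E2f1, E2f2, E2f3, E2f4, E2f5, E2f6, E2f8, Rb1, Rbl1 and Rbl2. They were found by gene name, or by the current symbol of the probe's accession, among the 41174 probes of a mouse expression array. The array held 19 probes for the 10 genes, and 16 of them, covering all 10, were well above background on at least 2 of 4 arrays and were tested. In the whole series 17537 features were tested, 15136 of them with a gene symbol, each read through its brightest probe. The RNA came from germline stem cells, cultured spermatogonial stem cells of the mouse testis, in which a Cre-ERT2 recombinase knocked into the Rosa locus can turn on a CAG-driven, Flag-tagged Nanos2 construct. NANOS2 binds RNA and maintains the undifferentiated state of these stem cells. The 2 control arrays were from cells given DMSO and the other 2 from cells given 4-hydroxytamoxifen, the ligand of Cre-ERT2, for 48 hours. Both groups carried the recombinase and the construct, no group took the ligand without them, and all cells had grown with GDNF (20 ng/ml), EGF (20 ng/ml) and FGF2 (10 ng/ml). All had mitomycin-treated fibroblasts from day 13.5 embryos as feeders, taken away before extraction, but fibroblast markers were still detected on all arrays. The comparison therefore holds ligand, recombinase and Nanos2 together.

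E2F proteins bind DNA with a DP partner and switch on the genes that a cell needs to copy its DNA. The pocket proteins, pRB from Rb1, p107 from Rbl1 and p130 from Rbl2, hold E2Fs in an inactive or repressing state until cyclin-dependent kinases phosphorylate them. In cells that leave the cycle, p130 joins E2F4 or E2F5 and the MuvB proteins in the DREAM complex, which represses genes of replication and mitosis. Mice without pocket protein or E2F1 function show that the pathway also matters for germ cell numbers in the testis.

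Nanos2 was higher in the arrays labelled 4-hydroxytamoxifen, with processed signals of 352.8 and 351.7 in DMSO and 903.8 and 1070 in 4-hydroxytamoxifen. Over kept probes the correlation within a group was 0.995 for DMSO and 0.996 for 4-hydroxytamoxifen, and between groups it was 0.945 to 0.952. Germ cell markers were above background for 22 of the 23 listed genes on the array, including Ddx4 and Dazl. Of those 22, 19 were lower and 1, Nanos2, was higher after 4-hydroxytamoxifen. The summed level of the 22 went from 8.41 and 8.38 in DMSO to 7.65 and 7.70 in 4-hydroxytamoxifen on the log2 scale. Markers of embryonic fibroblasts were higher for 23 of 24 genes. Their summed level went from 8.58 and 8.78 in DMSO to 9.57 and 9.49 in 4-hydroxytamoxifen on the log2 scale. In DMSO their processed signals ran from 299.8 and 322.9 (Twist1) to 70105 and 84818 (S100a4). Transcripts of fibroblast markers were thus present in both groups after the feeders were taken away. Macrophage and blood markers were higher for 6 of 9 genes and lower for 1, with summed levels of 4.03 and 4.19 against 5.16 and 5.19. Endothelial markers were higher for 3 of 5, with summed levels of -0.90 in each DMSO array against 0.38 and 0.40. These endothelial genes were dim, with signals from 23.7 (Tek) to 201.9 (Vwf) in DMSO. Sertoli and Leydig markers were higher for 6 of 9 and lower for 2, with summed levels of 2.47 and 2.62 against 3.64 and 3.56. Among these last 3 lists, Itgam, Cx3cr1, Cdh5, Tie1, Amh, Gata4, Cyp11a1 and Hsd3b1 were not well above background. Other markers were detected and higher, such as the macrophage gene Adgre1 (1.40), the endothelial genes Vwf (1.53) and Emcn (1.65) and the Sertoli gene Sox9 (0.81), and Wt1 (-0.88) and Cyp17a1 (-0.43) were lower. Among all features, 40.3% were higher and 29.3% lower at the threshold of the marker counts, a limma adjusted p under 0.05. The marker shifts ran alongside every difference given below, and their part in the results was not tested. In such bulk RNA, fewer cells of a type and less RNA per cell cannot be told apart.

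All 10 genes differed between the groups at a limma adjusted p under 0.05, 8 lower and 2 higher after 4-hydroxytamoxifen. The same threshold was passed by 69.5% of all features, 29.3% lower and 40.3% higher, so a call by itself was common on these arrays. With each array scaled on its median, 46.2% of the called features were higher, against 57.9% with the scaling used here. The median difference over the 10 genes was -0.67 on the log2 scale, against 0.11 over all features. Of the 10 genes, 4 were called and lower by 2-fold or more (E2f1, E2f2, E2f5 and E2f8), as were 8.19% of all features. No overlap between the groups was seen for any of the 10 genes, or for 86.5% of all features. Differences below are on the log2 scale, as 4-hydroxytamoxifen minus DMSO, and the value after ± is the limma standard error (n = 2 arrays in each group). Signals are processed signals before scaling.

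**Figure D1:**
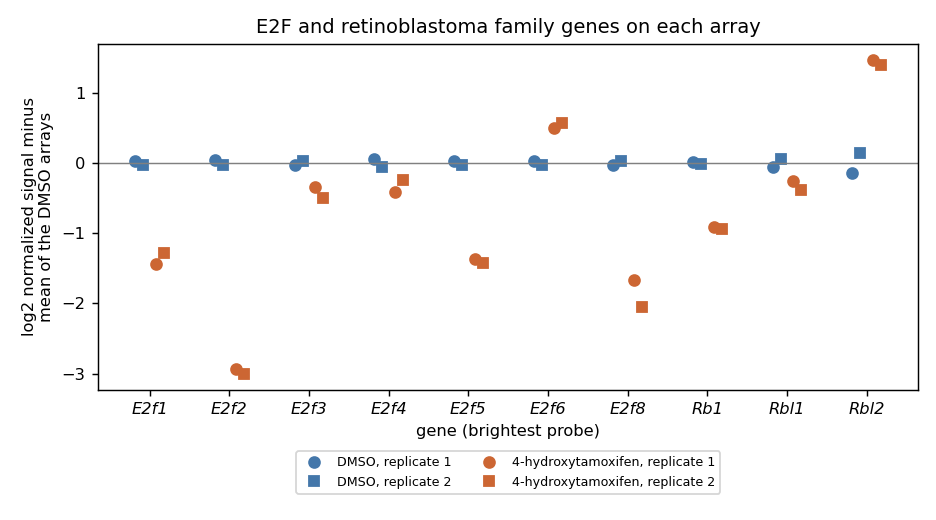
Normalized log2 signal of each family gene on each of the 4 arrays (y axis, log2 units above or below the mean of the 2 DMSO arrays; genes on the x axis, blue for DMSO and orange for 4-hydroxytamoxifen, circles for replicate 1 and squares for replicate 2). E2f2 lay lowest after 4-hydroxytamoxifen, with a difference of -2.97, Rbl2 highest with 1.44, and E2f6 was the other gene above its DMSO level.

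Promoter sequences are shown because several of these genes are known to be E2F targets themselves. RefSeq windows on GRCm38.p6, from 250 bases before to 50 bases after an annotated transcript start, were available for 7 of the 10 genes (9 windows, since E2f2 and E2f3 had 2 each). E2f4, E2f5 and Rb1 had none. The 4 E2F motifs searched on both strands were TTTCGCGC, TTTGGCGC, TTTCCCGC and TTTGCCGC, and the cell cycle homology region (CHR), the element through which MuvB binds, was searched as TTTGAA or TTCGAA. The 250 bases before the start are printed for Rbl1, E2f3 and Rbl2, and 30 bases around the match for E2f2 and E2f8, with E2F and CHR matches in capitals.
Rbl1, chr2:157204535-157204784, minus strand: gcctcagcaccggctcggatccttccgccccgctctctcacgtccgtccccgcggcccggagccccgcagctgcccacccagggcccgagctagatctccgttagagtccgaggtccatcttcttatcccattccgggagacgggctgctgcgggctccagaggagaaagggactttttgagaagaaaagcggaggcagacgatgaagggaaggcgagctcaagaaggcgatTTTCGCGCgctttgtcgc
E2f3, chr13:29986064-29986313, minus strand: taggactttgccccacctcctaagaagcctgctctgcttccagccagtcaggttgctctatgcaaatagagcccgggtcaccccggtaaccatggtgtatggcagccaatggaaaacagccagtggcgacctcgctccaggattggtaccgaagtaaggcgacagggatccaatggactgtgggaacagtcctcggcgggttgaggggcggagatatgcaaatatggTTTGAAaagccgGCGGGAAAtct
Rbl2, chr8:91069807-91070056, plus strand: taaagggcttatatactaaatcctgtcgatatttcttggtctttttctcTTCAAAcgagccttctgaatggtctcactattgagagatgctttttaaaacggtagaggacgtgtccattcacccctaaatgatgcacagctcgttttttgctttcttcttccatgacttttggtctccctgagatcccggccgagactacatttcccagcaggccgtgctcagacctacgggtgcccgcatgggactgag
E2f2, chr4:136172294-136172323, plus strand: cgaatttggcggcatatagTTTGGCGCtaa
E2f8, chr7:48881597-48881626, minus strand: gcgggttaatTTCAAAtcgggggctggact

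An E2F motif was present for 3 of the 7 genes: at positions -18 to -11 in Rbl1, -11 to -4 on the opposite strand in E2f3 and 40 to 47 in E2f2, counted from the transcript start. All 3 of these genes were lower after 4-hydroxytamoxifen, but so were 8 of the 10 family genes. Among them were E2f1 and E2f8, whose windows held no E2F motif. Counted by window, 3 of 9 held such a motif, against 2.26% of all 32851 windows of the table. A CHR motif was present for 4 of the 7 genes, in 4 of 9 windows against 19.2% of all windows, and began at -23 in E2f3, -20 in E2f8, -201 in Rbl2 and -31 in the second E2f2 window, whose transcript start lies 8508 bases inside the gene. The short GC element GGCGG, which can overlap an E2F motif, stood in all 9 windows and in 48.8% of all windows. E2f6 had neither an E2F nor a CHR motif in its window. The E2f1 window had neither motif, but its transcript start lay 466 bases inside the annotated gene, and that of the E2f8 window 477 bases inside. A match is a run of letters in this window and was not tested as a binding site.

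Transcripts of the activating E2Fs, which drive entry into S phase, fell. E2f2 fell furthest of the 10 genes, 7.83-fold. Its probe, on chromosome 4 at 135750562 to 135750621 of mm9, the build of all probe coordinates here, read 2495 and 2400 in DMSO and 305.1 and 290.4 in 4-hydroxytamoxifen. Each pair of arrays lay close together, and the groups were far apart. The difference was -2.97 ± 0.07 (limma adjusted p = 0.000367), which placed E2f2 at the 0.271 percentile of all features. By their brightest probes, E2f8 stood at the 1.83 percentile, E2f5 at 3.93, E2f1 at 4.23, Rb1 at 9.5 and Rbl2 at 92.8. The rest stood nearer the middle: E2f3 at the 24 percentile, E2f4 at 27.5, Rbl1 at 27.7 and E2f6 at 69.1.

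E2f1, the activator that can also promote apoptosis, had 2 tested probes on chromosome 2. The brighter one, at 154386004 to 154386063, read 2113 and 2055 in DMSO and 726.8 and 815.6 in 4-hydroxytamoxifen. Its difference was -1.37 ± 0.08 (limma adjusted p = 0.000775). The other, at 154385742 to 154385801, was printed in 10 spots per array, and its mean signal was 1140 and 1148 in DMSO and 246.6 and 302.3 in 4-hydroxytamoxifen. The spots of one array varied by 2.54% to 3.94% (coefficient of variation), less than the gap between the 4-hydroxytamoxifen arrays. This probe fell 3.99-fold (limma adjusted p = 0.000859 over all probes), where the brighter probe fell 2.58-fold. Within each array the log2 ratio of the other probe to the brighter one was -0.89 and -0.84 in DMSO and -1.56 and -1.43 in 4-hydroxytamoxifen. The 2 probes thus changed unequally, and both were lower.

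E2f3, which encodes the activator forms E2F3a and E2F3b, gave probe values that differed more. Its brightest probe, on chromosome 13 at 29998480 to 29998539, read 2935 and 3063 in DMSO and 2257 and 2031 in 4-hydroxytamoxifen, a difference of -0.42 ± 0.08 (limma adjusted p = 0.0123). The other 2 tested probes have coordinates that span far more than their 60 bases, 1087 and 3387, so each matches the genome in pieces with other sequence between them. They are printed because the size of the E2f3 fall turns on them.
E2f3 probe spanning 1087 bases, chr13:30001985-30003071, minus strand: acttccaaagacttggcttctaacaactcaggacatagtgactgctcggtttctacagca
E2f3 probe spanning 3387 bases, chr13:30005369-30008755, minus strand: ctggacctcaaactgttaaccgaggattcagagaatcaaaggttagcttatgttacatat

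The probe spanning 1087 bases read 472.0 and 463.7 in DMSO and 146.3 and 154.7 in 4-hydroxytamoxifen, and the E2f3 probe spanning 3387 bases read 192.4 and 183.6 against 57.2 and 64.9. Their differences were -1.57 ± 0.07 and -1.56 ± 0.09 (limma adjusted p = 0.000606 and 0.000864 over all probes). Both fell close to 3-fold, 2.96-fold and 2.94-fold, where the brightest probe fell 1.33-fold. The log2 ratio of the first to the brightest probe went from -2.64 and -2.72 in the DMSO arrays to -3.95 and -3.71 in the 4-hydroxytamoxifen arrays, a change of -1.15. The mean of the 3 E2f3 probes was -1.18 (limma adjusted p = 0.000694, alternatives for E2f3 from 0.000694 to 0.050). The remaining E2f3 probe was not well above background on any array. These ratios were not tested. The smallest two-sided p of an exact permutation over these 4 arrays is 0.333, for these ratios and for every other comparison given here.

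**Figure D2:**
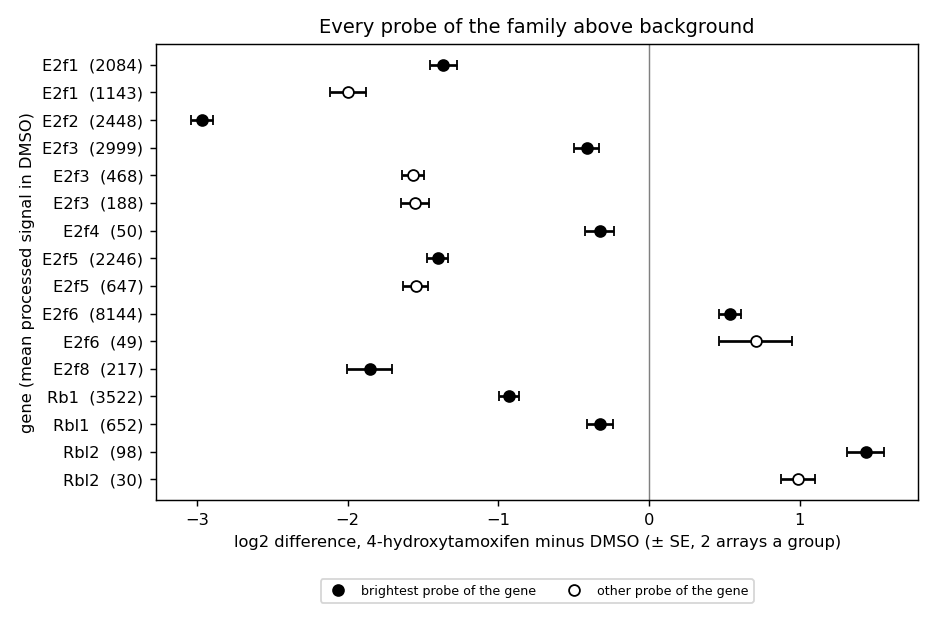
Log2 difference, 4-hydroxytamoxifen minus DMSO, of all 16 tested probes of the family (x axis; bars show limma standard errors from 2 arrays per group in the fit over all probes; filled for the brightest probe of a gene and open for the others; the mean processed signal in DMSO stands in brackets). Probes of one gene had the same sign for every gene with more than 1 tested probe, and the E2f3 probes ran from -1.57 to -0.42.

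E2f4 and E2f5 encode the E2Fs that bind p107 and p130 and act mainly as repressors. E2f5 fell by both of its tested probes on chromosome 3. The brighter, at 14605964 to 14606026, read 2281 and 2211 in DMSO and 823.1 and 794.4 in 4-hydroxytamoxifen, a difference of -1.40 ± 0.07 (limma adjusted p = 0.000527). The second E2f5 probe, at 14605676 to 14605735, gave -1.55 ± 0.08, so the gene was 2.65-fold and 2.93-fold lower by its 2 probes. The remaining E2f5 probe was not well above background on any array.

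E2f4 had 1 probe, on chromosome 8 at 107829156 to 107829215, and it was dim. It read 51.7 and 48.4 in DMSO and 35.6 and 40.5 in 4-hydroxytamoxifen, where the lowest signal well above background was 15.0 to 19.5 depending on the array. The difference was -0.33 ± 0.09 (limma adjusted p = 0.0369, alternatives from 0.0112 to 0.20). The arrays did not overlap, and the difference was -0.51 with median scaling or quantile normalization. The call was lost with normexp background correction (-0.13), with spike-in scaling (-0.47), without the filter on dim probes, and when DMSO replicate 1 was left out (adjusted p = 0.119), or DMSO replicate 2 (0.0504), or 4-hydroxytamoxifen replicate 1 (0.131).

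E2F6 lacks the region that binds pocket proteins and represses as part of the Polycomb complex PRC1.6. E2f6 was higher after 4-hydroxytamoxifen, against the direction of the other E2f genes measured here. Its brightest probe, on chromosome 12 at 16833463 to 16833522, read 8250 and 8038 in DMSO and 10954 and 11546 in 4-hydroxytamoxifen. The rise of 1.45-fold, 0.54 ± 0.07 (limma adjusted p = 0.00325), was larger than the spread within either group. It did not pass with spike-in scaling, at 0.39 (adjusted p = 0.117, alternatives from 0.000279 to 0.117), and was 0.35 with median scaling, where it passed. A second E2f6 probe, at 16828486 to 16828545, read 51.4 and 46.8 in DMSO and 95.8 and 60.5 in 4-hydroxytamoxifen. Its 4-hydroxytamoxifen arrays stood far apart, and its difference of 0.71 ± 0.25 did not pass (limma adjusted p = 0.0618 over all probes).

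E2F8 is an atypical family member that binds DNA without a DP partner and represses E2F targets, and its gene is itself switched on in S phase. The E2f8 probe, on chromosome 7 at 56122022 to 56122081, read 211.5 and 223.1 in DMSO and 65.3 and 50.1 in 4-hydroxytamoxifen. The fall was 3.62-fold, or -1.85 ± 0.15 (limma adjusted p = 0.00120). The 4-hydroxytamoxifen arrays differed from each other more than for the other genes, with an SD of 0.27, and with normexp correction the difference was -1.14, still past the threshold.

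The 3 pocket protein genes did not move together. Rb1, whose product pRB mainly restrains the activating E2Fs, was read through a probe printed in 10 spots per array on chromosome 14, at 73595408 to 73595467. Its mean signal was 3549 and 3500 in DMSO and 1778 and 1752 in 4-hydroxytamoxifen, with a coefficient of variation between spots of 3.17% to 4.85%. The values within each group were nearly equal, and the gene fell 1.90-fold, by 0.93 ± 0.06 (limma adjusted p = 0.000842). A second Rb1 probe, at 73662360 to 73662419, was not well above background on any array.

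Rbl1, which encodes p107 and is a known E2F target in cycling cells, changed little. Its probe, on chromosome 2 at 156972143 to 156972202, read 625.0 and 678.5 in DMSO and 516.6 and 474.8 in 4-hydroxytamoxifen. The arrays did not overlap, and the difference was -0.32 ± 0.08 (limma adjusted p = 0.0256, alternatives from 0.00576 to 0.107). It was -0.51 with median scaling. The call was lost with spike-in scaling (-0.47) and without the filter on dim probes, and when DMSO replicate 2 was left out (adjusted p = 0.0917), or 4-hydroxytamoxifen replicate 1 (0.0508), or 4-hydroxytamoxifen replicate 2 (0.107). The motif shown above sits just before its start, as in E2f3.

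Rbl2 encodes p130, the pocket protein that accumulates in resting cells, and it rose most of the 10 genes. Its brighter probe, on chromosome 8 at 93647120 to 93647179, read 87.4 and 107.7 in DMSO and 255.8 and 244.4 in 4-hydroxytamoxifen, a rise of 2.71-fold or 1.44 ± 0.12 (limma adjusted p = 0.00125). The second, at 93646362 to 93646421, read 26.9 and 32.7 in DMSO and 55.9 and 56.1 in 4-hydroxytamoxifen. It gave 0.99 ± 0.11 (limma adjusted p = 0.00269 over all probes), so both Rbl2 probes rose. The Rbl2 difference was 1.01 with normexp correction and 1.21 as the mean of its probes, past the threshold in both. Markers of fibroblasts, blood and somatic testis cells were higher in the same arrays, as given above, and their part in the rises of Rbl2 and E2f6 was not tested.

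**Figure D3:**
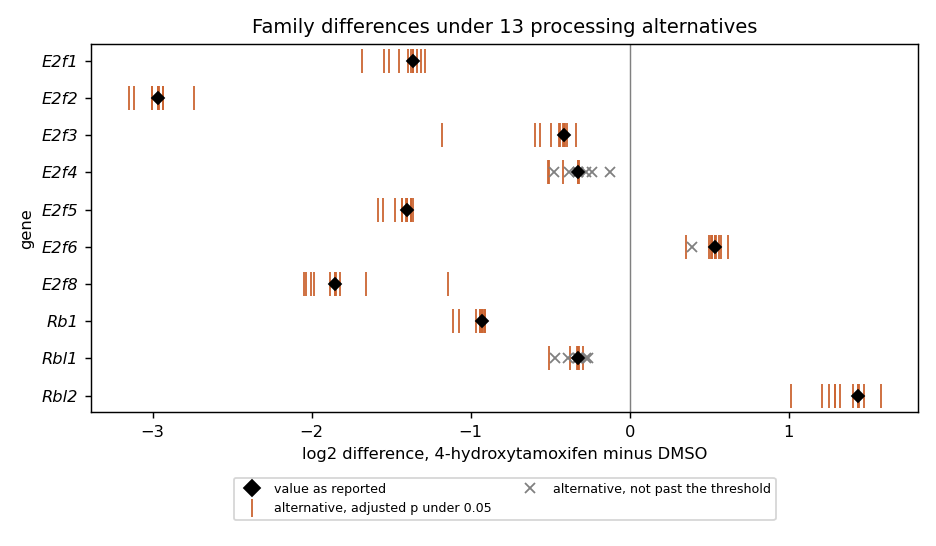
Log2 difference of each family gene as reported (black diamonds) and under 13 processing alternatives (orange bars where the limma adjusted p was under 0.05, grey crosses where it was not). No value crossed 0, E2f4, Rbl1 and E2f6 were the genes with crosses, and the E2f3 value near -1.18 is the mean of its probes.

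Partners and regulators of the family were taken from 10 lists of genes. The counts of every list stand beside 29.3% lower and 40.3% higher among all features. Of the DP partners, Tfdp1, which encodes DP1, fell by 0.63 ± 0.06, and Tfdp2, named outside the rule after its value was seen, was at 0.01 ± 0.07 and did not pass (limma adjusted p = 0.95). Among the MuvB core and the factors that turn it into an activator, 6 of 8 were lower and 2 higher, with a median of -0.57. Mybl2 and Foxm1 fell most. Mybl2, which encodes the activator B-MYB, went from 2064 and 1943 to 277.7 and 315.0, a fall of 2.69 ± 0.09. Foxm1, the forkhead factor of the G2 phase, fell by 2.30 ± 0.08. The core genes Rbbp4 and Lin9 fell by 0.89 ± 0.08 and 0.60 ± 0.06, whereas the core gene Lin52 was higher at 0.52 ± 0.07, at 0.34 with median scaling and without passing under spike-in scaling. Mybl1, which encodes the germ cell paralogue A-MYB, rose by 1.08 ± 0.09, and by 0.50 with normexp correction, still past the threshold.

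The kinases that phosphorylate pocket proteins and their cyclins went both ways, with 5 of 10 lower, 2 higher and a median of -0.14. Ccna2, cyclin A2 of S phase and mitosis, went from 4962 and 5166 to 347.0 and 390.3, a fall of 3.71 ± 0.08. Ccne2, a cyclin E gene, fell by 1.31 ± 0.11 (by 0.86 with normexp correction, past the threshold), the germ cell cyclin gene Ccna1 by 1.26 ± 0.08 and Cdk4 by 0.65 ± 0.08. Ccnd1, cyclin D1, rose by 1.19 ± 0.14 and its kinase Cdk6 by 1.04 ± 0.14, although the mean of all Cdk6 probes, 0.24, did not pass. Genes of CDK inhibitors, which keep pocket proteins active, were higher for 4 of 7 and lower for 1, with a median of 0.77. Among all features 40.3% were higher and 29.3% lower, so counts in lists this short say little. Cdkn2c rose by 1.22 ± 0.10, Cdkn2b by 1.09 ± 0.11, Cdkn1a by 1.04 ± 0.07 and Cdkn2a by 0.77 ± 0.11. Cdkn1c, which encodes p57, fell by 0.73 ± 0.07.

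Chromatin proteins that pocket proteins recruit were lower for 8 of 14 genes and higher for 2, with a median of -0.40. The histone methyltransferase gene Suv39h1 fell by 1.55 ± 0.08, Dnmt1 by 1.05 ± 0.07, Sin3a by 1.02 ± 0.18 and Kdm5a by 0.94 ± 0.10. Smarca2, an ATPase of the SWI/SNF remodeller, rose by 0.79 ± 0.12 (by 0.50 as the mean of its probes, past the threshold) and Hdac2 by 0.55 ± 0.08, Hdac2 without passing under spike-in scaling. The PRC1.6 partners of E2F6 were lower for 10 of 13 and higher for 2, with a median of -0.40, while E2f6 itself was higher. Cbx3 fell by 1.35 ± 0.06, L3mbtl2 by 0.84 ± 0.12, Wdr5 by 0.80 ± 0.06 and the histone deacetylase gene Hdac1 by 0.71 ± 0.07. The mean of all L3mbtl2 probes, -0.43, did not pass. Max rose by 0.74 ± 0.14, and Hdac2, Hdac1 and Tfdp1 belong to more than 1 of these lists. Of 5 germline genes known as targets of E2F6, 4 were tested and all 4 fell: Tuba3a by 1.20 ± 0.10, Slc25a31 by 0.86 ± 0.08, the cohesin genes Stag3 by 0.64 ± 0.06 and Smc1b by 0.50 ± 0.07. Their median was -0.75, where 29.3% of all features were lower. Of the 22 germ cell markers given above, 19 were lower, with a median of -1.25. A part of E2F6 in these falls was not tested.

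Replication and mitosis genes that the family controls were lower. In the list of G1/S genes that E2Fs activate, 50 of 51 were lower by limma, with a median of -1.46, and none lay above 0. The list was led by Chaf1b (-2.72 ± 0.08), Mybl2, the thymidine kinase gene Tk1 (-2.65 ± 0.07) and the replication licensing gene Cdc6 (-2.55 ± 0.06). In the list of G2/M genes that DREAM binds, 36 of 36 were lower, with a median of -2.24 and a range from -3.94 to -0.60. Aurkb (-3.94 ± 0.08), Kif11 (-3.68 ± 0.07), Ccnb2 (-3.43 ± 0.07) and Mki67 (-3.25 ± 0.08) led it. Kif11 read 22.1 and 20.9 after 4-hydroxytamoxifen, near the lowest signals well above background, and its difference was -1.99 with normexp correction, still past the threshold. Aurkb read 62.0 and 67.4 after 4-hydroxytamoxifen. With normexp correction its difference was -2.98, where Ccnb2 was at -3.42 and Mki67 at -3.18, so the order of these genes depended on the background correction. Apoptosis genes listed as under control of E2F1 went the other way, with 7 of 10 higher, 1 lower and a median of 0.75. E2f1 itself was lower, and a part of E2F1 in these rises was not tested. Bbc3, which encodes PUMA, rose by 1.26 ± 0.07, Bak1 by 1.12 ± 0.10 (0.46 as the mean of its probes, past the threshold), Casp9 by 1.04 ± 0.08 and Casp8 by 0.90 ± 0.06. These counts stand beside 29.3% lower and 40.3% higher among all features, and beside the marker shifts given above.

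**Figure D4:**
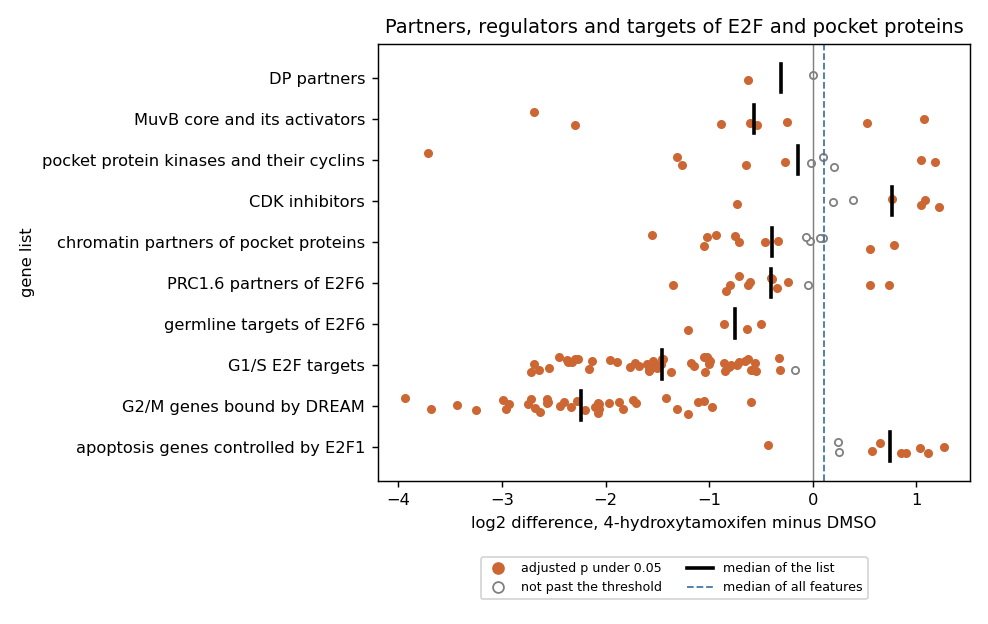
Log2 difference, 4-hydroxytamoxifen minus DMSO, of each tested gene in 10 lists (x axis; rows are lists; orange for a limma adjusted p under 0.05 and open grey otherwise; black bars mark list medians and the dashed line the median of all features, 0.11). All G1/S and G2/M genes lay below 0, and CDK inhibitors and the apoptosis genes listed for E2F1 lay mostly above it.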

How the data were processed

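The deposited scanner files hold spot intensity values on a linear scale from Agilent array design 014868. Per the file headers, the authors used Feature Extraction 10.7.3.1, with background subtraction and detrending; version 9.5 stands in the submitters' processing notes. The authors' deposited value table holds log2 values. For 99.7% of probes these were the log2 of the processed signal with a fixed amount added per array (within 0.01), so its scale and direction were known, and it served as an alternative. Its column medians were 6.16, 6.19, 6.35 and 6.35.

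Each array's 75th percentile was subtracted from its log2 processed signals, and the spots of a probe were averaged after control spots and 60 to 71 outlier spots per array were removed. A probe was kept if it was well above background on 2 or more arrays (26393 of 41174), and the brightest stood for its gene. Names came from a RefSeq table of GRCm38.p6 (33636 probes matched, 7538 kept the name in the file). limma 3.58.1 (R 4.3.3; lmFit, then eBayes, with group as the only term) was fitted over all features, with Benjamini-Hochberg adjustment and a threshold of 0.05, and was tested on simulated data. No spot was saturated, and all arrays sat on 1 slide, read in 1 scan. The number of arrays limits the precision. The labels do not state separate cultures within a group, so the p-values reflect only how these samples varied, which may be technical.

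The genes and lists were chosen with earlier results of these data known. From each list, up to 4 called genes with the largest difference in the commoner direction and up to 4 in the other were named, with Nanos2 and all 10 family genes. Some genes that this rule or a count would name are not reported here. Alternatives covered background correction, scaling, the filter, probes per gene, the value table, a replicate block and leaving out each array.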

Additional observations from a re-analysis of the deposited data

How the results depend on the processing

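Of 130 differences of family genes (10 genes under 13 alternatives), 116 kept their direction and their side of the threshold, 14 did not pass and none changed direction; E2f4, Rbl1 and E2f6 accounted for those 14. With spike-in scaling the count of family genes higher was 1, as was that of the MuvB, chromatin and PRC1.6 lists. With the mean of all probes, 1 kinase or cyclin gene was higher and 2 apoptosis genes were lower. Leaving out each of the 4 arrays in turn gave 6 to 7 family genes lower and 2 higher, 4129 to 4674 features lower and 5896 to 6769 higher, against 5132 and 7063. With the replicate number as a block, 6 family genes were lower and 2 higher, and E2f4 (adjusted p = 0.0761) and Rbl1 (0.0644) did not pass. The labels do not say that equal numbers mark a shared culture, and deviations of same-numbered arrays correlated at -0.0451 over features, with 2 pairs, so the numbers were not taken as pairs. Of 598 differences of 46 other named genes, 594 kept direction and side, and 0 changed direction. The median over all features was 0.11, -0.07 with median scaling and -0.04 with spike-in scaling, so small differences depend on the scaling. Signals near background limit E2f4, the dimmer E2f6 probe, Rbl2 and the size of the E2f8 fall. The causes of these changes were not tested.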

Other observations

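The E2F motif was also counted across the array, as a description without a test. Of the tested features with a promoter window, 524 held an E2F motif. Of those, 44.7% were lower and 30.5% higher after 4-hydroxytamoxifen at a limma adjusted p under 0.05, with a median of -0.15, against 29.4% lower, 42.8% higher and a median of 0.14 among the 11466 features without one. A fall of at least 2-fold was seen for 16.4% of features with the motif and 7.69% of those without it. For the CHR motif, 31.7% of the 1997 features with it and 29.7% of the 9993 without it were lower, the medians were 0.14 and 0.13, and 10.9% and 7.51% fell at least 2-fold. In the G1/S list, 18 of 42 genes with a window held an E2F motif (42.9%), and 8 held a CHR motif. In the G2/M list, 2 of 32 held an E2F motif and 25 held a CHR motif (78.1%), against 2.60% and 21.7% of all genes with a window.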
